A study of Bos taurus with 11 samples.

Results

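The genes described here encode the proteins of the extracellular matrix of the uterine lining: collagens, laminins, small leucine-rich proteoglycans, elastic fibre proteins and adhesive glycoproteins. They were chosen by name. A gene entered when an array feature (a probe set) carried exactly 1 gene symbol that was a collagen chain (COL, a number, A, a number), a laminin chain (LAMA, LAMB or LAMC with a number) or 1 of DCN, LUM, BGN, FMOD, OGN, FN1, FBN1, FBLN1, FBLN5, ELN, SPARC, THBS1, THBS2, TNC, NID1, POSTN and LOX. This gave 45 genes of the 9155 named on the array, on 86 of 24016 probe sets. Of the 45 genes, 21 had 1 probe set, and the other 24 were represented by the probe set with the highest mean over all arrays. Endometrium, the mucosa that lines the uterus, came from 11 multiparous Holstein-Friesian cows slaughtered 14 ± 0.4 days after calving, whose parity averaged 4.7 and whose previous lactation had yielded 6477 ± 354 kg of milk. Both groups were in negative energy balance, the state in which milk and maintenance cost more energy than feed supplies, and no group in positive balance was part of the comparison. From day 2 after calving, the 5 cows of the mild group had free access to silage, ate 8 kg of concentrate daily and were milked 1 time per day. The 6 cows of the severe group were limited to 25 kg of silage and 4 kg of concentrate and were milked 3 times per day, so diet and milking frequency changed together and cannot be told apart.

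Fibrillar collagens assemble into the ropes that give connective tissue its tensile strength, and stromal fibroblasts make most of them. Laminins, collagen IV and nidogen instead form the basement membrane, the thin sheet on which epithelium and blood vessels rest. Small leucine-rich proteoglycans coat collagen fibrils and set their diameter and spacing, and after calving the uterus removes much of its collagen and rebuilds its lining while it shrinks.

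Each cow's RNA was measured on 1 Affymetrix bovine array, and values are log2 signals made with RMA, so that 1 unit is a doubling of the signal. The median signal was 6.20 on every array, and pairs of arrays correlated at 0.948 to 0.991. An array has no read depth, and the number of arrays limits the precision. A signal is called dim where it lies below 5.52, under which the lowest 40% of probe sets fall. Markers of the labelled tissue were bright, with HOXA10, a homeobox gene of the uterus, between 8.50 and 10.11 over all cows, and EPCAM, an epithelial adhesion protein, between 8.69 and 10.99. KRT8, an epithelial keratin, was dim in both groups. Levels of different genes are not compared, since each probe set has its own affinity. In bulk tissue, fewer cells of a type and less RNA per cell cannot be told apart.

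None of the 45 matrix genes passed the test for a difference between severe and mild energy deficit. Among genes with a bright signal, COL1A1, COL3A1 and COL4A1 differed by -0.15, -0.03 and -0.07 log2 units, given as severe minus mild throughout. Other bright genes lay further apart, such as THBS1 (0.48), LUM (0.44), FBLN1 (0.32) and TNC (-0.26). At the threshold of 0.05 for the adjusted p, limma called 0 of the 45 genes, beside 0 of 24016 probe sets (0%), and the adjusted p-values of the 45 ran from 0.365 to 0.997. At an unadjusted p under 0.05 limma found 2 of 45 higher in severe cows, FBLN1 and THBS1, and 1 lower, COL5A3. Over all 9155 genes the shares at that limit were 8.45% higher and 7.46% lower, so the count in the matrix genes was not above that of the array. Over all 24016 probe sets, 3085 had an unadjusted p under 0.05. The groups overlapped in all 45 genes. They did not overlap in only 109 of 9155 genes (1.19%), so overlap in all 45 does not set the matrix genes apart from the array.

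Of the 45 genes, 20 had a difference above 0 and 25 below, with a median of -0.03, a lowest value of -0.96 (OGN) and a highest of 0.70 (LAMB3). Without mild 3 the median was 0.002, with 23 above and 22 below 0. Over all 9155 genes the median was -0.004, and 48.9% lay above 0. The 95% interval of the difference stayed within 1 log2 unit of 0 for 38 of the 45 genes and within 0.5 for 25. For most genes these intervals, which are not adjusted for the number of tests, leave out a doubling of the signal in either group. Smaller differences were not detectable with this number of cows. Larger ones elsewhere on the array did not pass either: MMP1, a collagenase, differed by 4.85 with a limma adjusted p of 0.269. The SD between cows of a group, pooled over the groups, ran from 0.093 to 0.924, with a median of 0.253, beside 0.190 over all genes. COL4A3, COL4A4, COL9A1, COL21A1, COL10A1 and COL17A1 were dim in both groups, which leaves 39 genes with a clear signal.

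**Figure D1:**
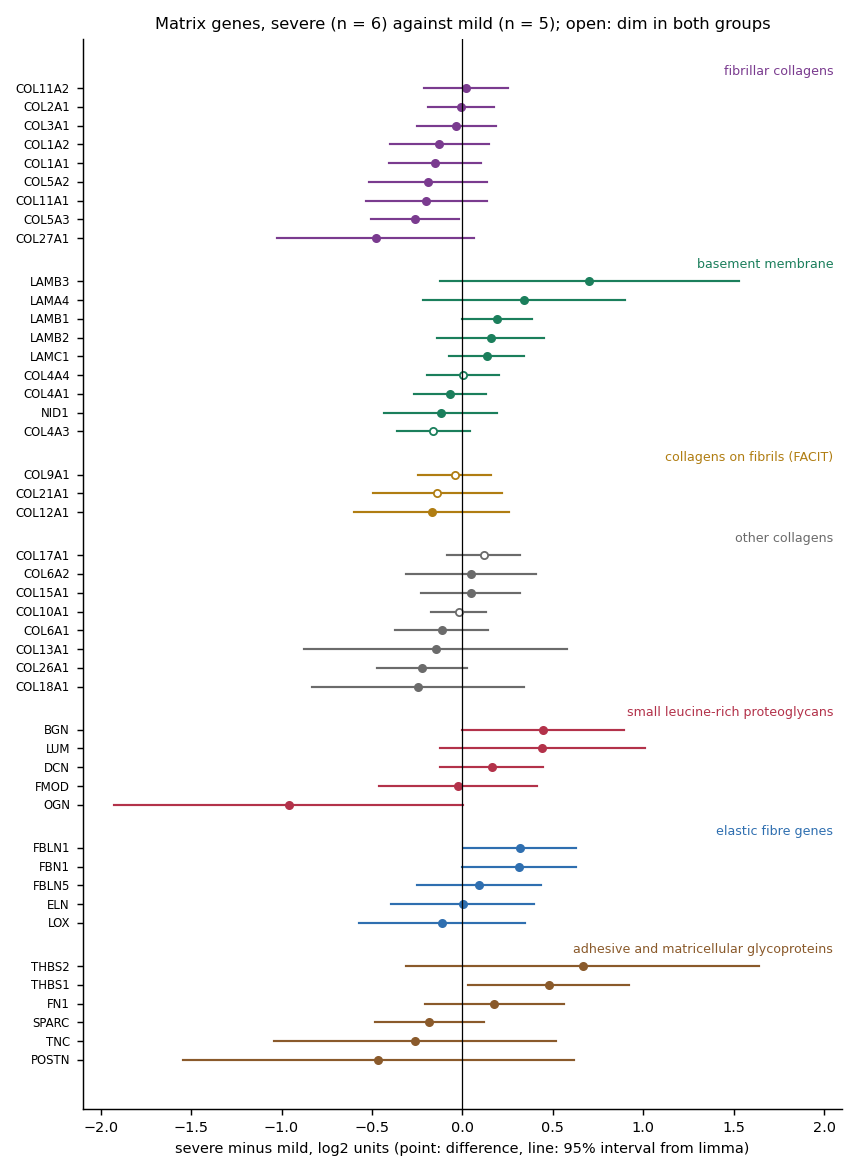
Difference of the mean log2 signal, severe (n = 6) minus mild (n = 5), for the 45 matrix genes by class, with the 95% interval from limma as a line and open points for the 6 genes that were dim in both groups. Of the 9 fibrillar collagens 8 lie left of 0 and all 5 laminins lie right of it (LAMC1 on its brightest probe set), while nearly all intervals include 0.

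Among the 9 fibrillar collagens, 8 had a lower and 1 a higher mean in severe cows, with a median difference of -0.15 and 1 at an unadjusted p under 0.05. Mild 1 carried much of this: without it 6 were lower and 3 higher, with a median of -0.04, and without mild 3 the median was -0.09. COL1A1 encodes the chain that makes up most of collagen I, the main collagen of connective tissue. Its values were 13.45, 13.05, 13.59, 13.18 and 13.17 in the mild cows, and 12.88 (lowest), 13.09 (median) and 13.37 (highest) in the severe cows. The severe cows lay inside the mild range except for 1 cow below it, and the difference was -0.15 ± 0.12 (SE), with a limma adjusted p of 0.608, or -0.08 without mild 3.

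COL1A2, the partner chain of COL1A1 in the collagen I trimer, had the brightest signal of the whole table, 14.57 in mild 1. The other mild cows were at 13.97, 14.34, 14.14 and 14.04, and the severe cows spanned 13.77 to 14.26 with a median of 14.15. The difference was -0.13 ± 0.13 (limma adjusted p = 0.691), or -0.04 without mild 1 and -0.07 without severe 2. COL3A1, the collagen of thin reticular fibrils, was at 14.28, 13.92, 14.18, 13.86 and 13.77 in mild cows and between 13.82 and 14.06, with a median of 14.02, in severe cows. The severe values all fell inside the mild range, and the difference of -0.03 ± 0.10 (limma adjusted p = 0.916) changed sign with the cow left out, being 0.04 without mild 1 and 0.01 without mild 3.

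COL5A3 and COL27A1 had the smallest p-values of the fibrillar class. COL5A3, a minor chain of collagen V, which helps to start fibrils, was at 5.87, 6.32, 6.21, 6.37 and 5.85 in mild cows, close to the dim limit. In severe cows it ran from 5.70 to 6.00 with a median of 5.84. Mild 2, mild 3 and mild 4 lay above every severe cow, and mild 1 and mild 5 lay among them. The difference was -0.26 ± 0.11, with a limma unadjusted p of 0.037 and an adjusted p of 0.365. COL27A1, a fibrillar collagen best known from cartilage, was at 10.02, 10.16, 9.82, 10.05 and 9.30 in mild cows and between 8.81 and 10.23, with a median of 9.32, in severe cows. The severe cows split, with severe 3 above all mild cows and 3 below them all, and the difference was -0.48 ± 0.25 (limma adjusted p = 0.447). The other differences in the class were -0.19 for COL5A2, -0.20 for COL11A1, -0.01 for COL2A1 and 0.02 for COL11A2.

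Of the 9 basement membrane genes, 6 had a higher and 3 a lower mean in severe cows, with a median difference of 0.13 and none at an unadjusted p under 0.05 in limma. This side depended on the probe set: when the probe sets of each gene were averaged, or the one of largest SD was taken, 4 were higher and 5 lower, with medians of -0.03 and -0.12. Without mild 2 the median was 0.08, and without mild 4 it was 0.09. The 5 laminin chains all lay on the higher side, LAMC1 on its brightest probe set but not on the other 4 with a clear signal, with a median of 0.19, whereas collagen IV and nidogen did not. COL4A1, a chain of the collagen IV network, was at 12.28, 11.88, 12.17, 12.30 and 11.95 in mild cows and spanned 11.97 to 12.19, with a median of 12.002, in severe cows. All severe values lay within the mild range, and the difference was -0.07 ± 0.09 (limma adjusted p = 0.780), with a range of -0.13 to -0.03 when 1 cow was left out. COL4A2, its usual partner, was not analysed here. COL4A3 and COL4A4, the chains of the kidney glomerulus and other specialised membranes, were dim in both groups. NID1, which links the laminin sheet to collagen IV, differed by -0.12 ± 0.14.

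LAMB1 and LAMC1 encode the beta and gamma chain of the most widespread laminins. LAMB1 was at 10.86, 10.64, 10.90, 10.96 and 11.02 in mild cows, and the severe cows ran from 10.91 to 11.22 with a median of 11.04. All 6 severe cows were above the mild mean and 3 were above the highest mild cow. The difference was 0.19 ± 0.09, with a limma unadjusted p of 0.053 and an adjusted p of 0.395, and it was 0.10 without mild 2 and severe 5. LAMC1 was at 10.71, 10.22, 10.38, 10.30 and 10.55 in mild cows and between 10.42 and 10.66 in severe cows, with a median of 10.58, all within the mild range. The difference of 0.13 ± 0.09 (limma adjusted p = 0.570) rests on the probe set used. It was -0.03 as the mean over the 6 LAMC1 probe sets and -0.18 on the one with the largest SD.

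LAMB3 encodes the beta chain of an epithelial laminin, which anchors epithelial cells to the membrane below them. It had the largest positive difference of the 45 genes, 0.70 ± 0.38, a 1.63-fold higher mean in severe cows with a limma adjusted p of 0.460. Mild cows were at 6.15, 6.46, 6.51, 5.97 and 7.45, and severe cows spanned 6.12 to 7.98 with a median of 7.50. Most severe cows were near the single high mild cow, mild 5, while severe 3 and severe 5 lay among the low mild cows. LAMA4, an alpha chain of vessel and muscle laminins, differed by 0.34 ± 0.26, and LAMB2, a beta chain of muscle and nerve basement membranes, by 0.16 ± 0.13.

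**Figure D2:**
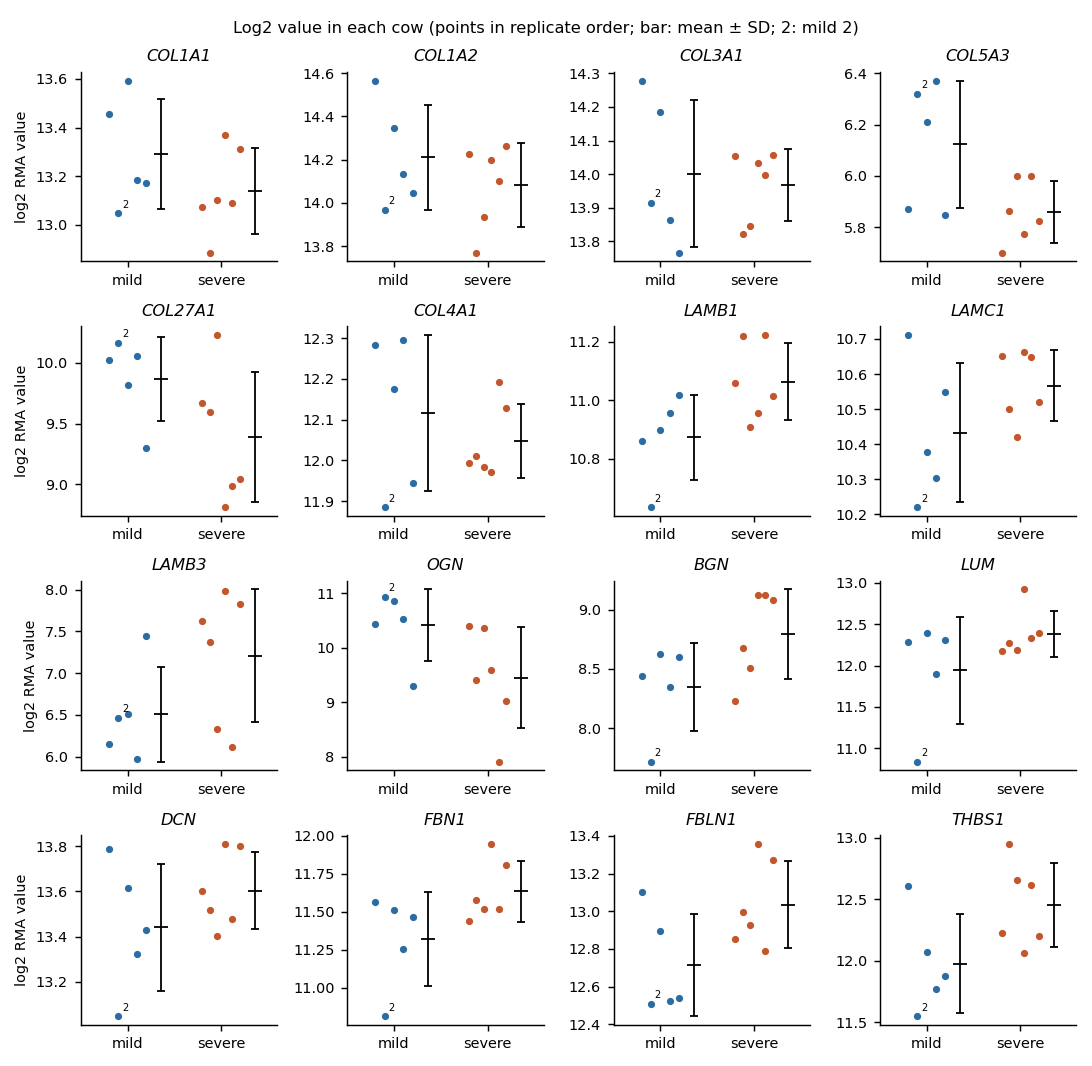
Log2 RMA signal of 16 matrix genes in each mild (blue) and severe (orange) cow, with the mean ± SD of each group as a bar and mild 2 marked. The groups overlap in every panel, and mild 2 is the lowest of the 11 cows for LUM (10.84), BGN (7.72), FBN1 (10.81) and DCN (13.05).

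Fibrillar and basement membrane genes were set side by side within each cow. For every gene the mean over all cows was subtracted, the results were averaged over the class, and the basement membrane average was taken from the fibrillar one. The balance was 0.24, 0.22, 0.25, 0.19 and -0.10 in the mild cows. In the severe cows it ran from -0.30 to 0.16. In the mild group 4 of 5 cows lay together above every severe cow, mild 5 lay among the severe ones, and 3 of 6 severe cows were below the lowest mild cow. The means were 0.16 ± 0.15 (SD, n = 5) and -0.13 ± 0.16 (SD, n = 6), a difference of -0.29, which is given as a description with no test. It kept its sign under every alternative tried, between -0.36 and -0.20.

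On the chosen probe sets, both classes contributed to that balance. The basement membrane side depended on that choice, with a median difference of -0.03 when probe sets were averaged and -0.12 on the one of largest SD. The fibrillar average was below the mild mean in 6 of 6 severe cows, and the basement membrane average was above the highest mild cow in 4 of 6. These 4, severe 1, severe 2, severe 4 and severe 6, were the severe cows with the highest LAMB3, 7.38 to 7.98. LAMB3 was at 6.33 in severe 3 and 6.12 in severe 5. Genes were not scaled, so LAMB3, with the largest difference of the class (0.70), weighed most in this average. With the laminins alone in place of the whole basement membrane class, a split made after the values were seen, the difference was -0.46. The laminin average was above the highest mild cow in 5 of 6 severe cows, severe 3 being the exception. LAMB3 weighed most in this average too, with a difference of 0.70 beside 0.13 to 0.34 for the other laminins. The count therefore does not show that all laminins shared the pattern.

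**Figure D3:**
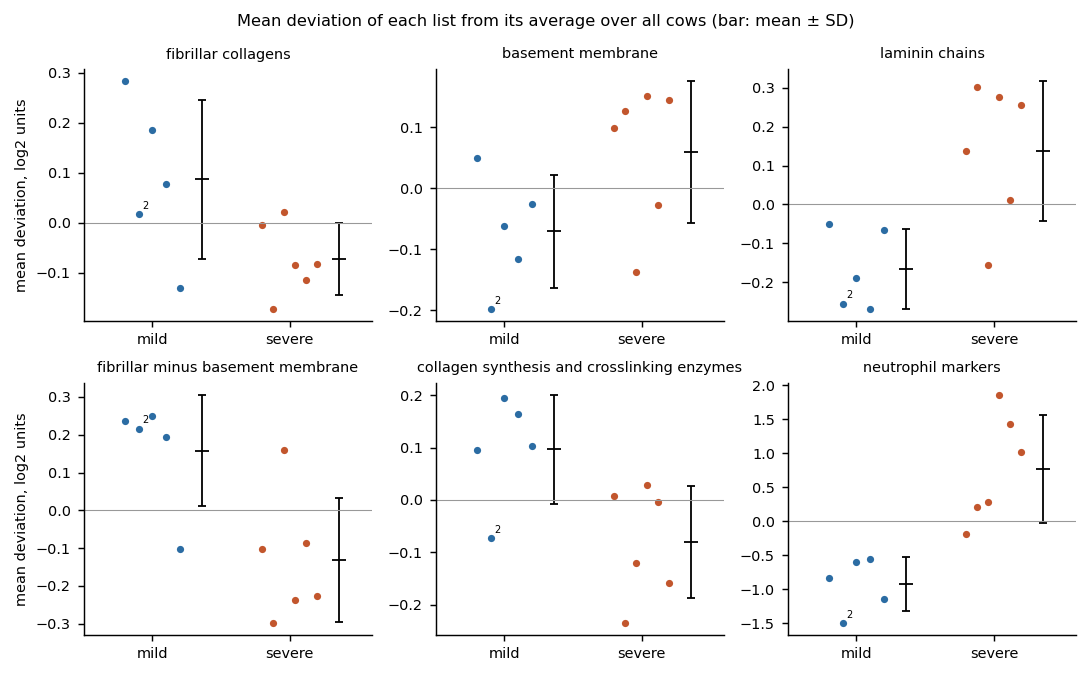
Average deviation of each gene list from its mean over all cows, in log2 units, for each mild (blue) and severe (orange) cow, with the group mean ± SD as a bar. Fibrillar collagens are lower and laminins higher in most severe cows with overlapping groups, and the neutrophil markers do not overlap.

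Markers of immune cells were brighter in most severe cows, though none passed the test. The smallest limma adjusted p was 0.215 among the neutrophil markers and 0.322 among the macrophage markers. The average over 9 of 12 neutrophil markers ran from -1.50 to -0.56 in mild cows and from -0.18 to 1.86 in severe cows, so 6 of 6 severe cows were above all mild cows. Of the 9 markers, 7 had a higher mean in severe cows, 6 of them at an unadjusted p under 0.05 in limma, beside 8.45% higher over all genes, while MPO, ELANE and FCGR3A were dim in both groups. CXCR1, a chemokine receptor of neutrophils that was dim in all 5 mild cows, differed by 2.67 ± 0.45 and S100A8, a calprotectin subunit, by 3.24 ± 0.66. The 9 of 12 macrophage markers measured all had a higher mean in severe cows, 4 at an unadjusted p under 0.05, and their average overlapped, from -1.17 to 0.20 in mild and from -0.82 to 1.32 in severe cows. Without mild 2 and severe 5, 8 of 9 were higher and 0 had an unadjusted p under 0.05. C1QA and C1QB, complement chains made by macrophages, differed by 1.197 ± 0.43 and 1.202 ± 0.44. Among fibroblast markers 5 of 10 were higher and 5 lower, with averages of -0.14 to 0.24 in mild and -0.17 to 0.13 in severe cows. Single fibroblast markers lay apart in opposite directions at an unadjusted p under 0.05, PDGFRA by 0.97 ± 0.27 and S100A4 by 0.69 ± 0.23 on the higher side and HOXA10 by -0.71 ± 0.20 on the lower. Smooth muscle averages ran from -0.58 to 0.53 and from -0.87 to 0.40, with 6 of 8 markers lower and 0 at an unadjusted p under 0.05, TAGLN and ACTA2 differing by -0.44 ± 0.28 and -0.28 ± 0.24. Endothelial averages ran from -0.35 to 0.13 and from -0.21 to 0.28, with 6 of 9 higher, CDH5 by 0.24 ± 0.11, and KDR dim in both groups at -0.24 ± 0.09, an unadjusted p under 0.05. Epithelial averages ran from -0.31 to 0.58 and from -0.99 to 0.41, with 8 of 12 lower, KRT8 dim and severe 5 at the low end. Without mild 2, or without severe 5, 7 of the 12 were higher. CLDN10, a tight junction protein, differed by -0.997 ± 0.42 at an unadjusted p under 0.05, and CLDN7 by -0.42 ± 0.21. The part of these cell types in the values of the matrix genes and of the other lists was not tested.

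The 3 collagens that attach to the surface of fibrils all had a lower mean in severe cows, with a median of -0.14, but COL9A1 and COL21A1 (-0.14 ± 0.16) were dim in both groups, and without mild 4 the median was -0.02. COL12A1, the one with a clear signal, decorates collagen I fibrils in tissue under load. It was at 11.40, 11.16, 11.90, 12.06 and 10.79 in mild cows and between 11.13 and 11.41, with a median of 11.30, in severe cows. The severe cows clustered within the mild range, and the difference was -0.17 ± 0.20 (limma adjusted p = 0.749), or -0.02 without mild 4 and -0.34 without mild 5.

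Of the 8 remaining collagens 3 were higher and 5 lower in severe cows, with a median of -0.07, or -0.01 without mild 2 or without mild 4, and none at an unadjusted p under 0.05. COL26A1, a small collagen described in reproductive organs, had the smallest p. It was at 7.27, 7.0, 6.98, 6.92 and 7.07 in mild cows and between 6.54 and 7.13, with a median of 6.81, in severe cows. Severe 2, severe 5 and severe 6 lay below every mild cow, and the difference was -0.23 ± 0.11 (limma adjusted p = 0.439). COL17A1, a transmembrane collagen of epithelial anchoring junctions, differed by 0.12 ± 0.09 but was dim. COL6A1 and COL6A2, chains of the beaded filaments around cells, differed by -0.12 ± 0.12 and 0.05 ± 0.17. COL15A1 and COL18A1, which lie in or next to basement membranes, differed by 0.05 ± 0.12 and -0.24 ± 0.27, and COL13A1, a transmembrane collagen, by -0.15 ± 0.33. Over all 23 collagens, 5 had a higher and 18 a lower mean in severe cows, with a median of -0.13, or -0.04 without mild 1.

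Among the 5 small leucine-rich proteoglycans, 3 had a higher and 2 a lower mean in severe cows, with a median of 0.16, or 0.06 without mild 2. OGN, osteoglycin or mimecan, had the most negative difference of all 45 genes. It was at 10.44, 10.94, 10.86, 10.52 and 9.30 in mild cows and between 7.90 and 10.41, with a median of 9.50, in severe cows. All severe cows lay below the mild mean, with severe 5 the lowest, while mild 5 lay among them. The difference was -0.96 ± 0.44, a 1.95-fold lower mean, with a limma unadjusted p of 0.051 and an adjusted p of 0.391. Without mild 2 and severe 5 it was -0.52.

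BGN, biglycan, which binds collagen and can act as a danger signal when released, was at 8.44, 7.72, 8.63, 8.35 and 8.60 in mild cows. The severe cows ran from 8.23 to 9.13 with a median of 8.88, and 4 of 6 lay above the highest mild cow. The difference was 0.45 ± 0.20 (limma adjusted p = 0.392), and it was 0.29 without mild 2. LUM, lumican, which limits fibril thickness, was at 12.28, 10.84, 12.39, 11.89 and 12.30 in mild cows and between 12.18 and 12.92, with a median of 12.31, in severe cows. The low value of mild 2 carried much of its difference, which was 0.44 ± 0.26 (limma adjusted p = 0.495) with all cows and 0.17 without mild 2.

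DCN, decorin, the most studied binder of collagen I among these proteoglycans, was at 13.79, 13.05, 13.62, 13.32 and 13.43 in mild cows and between 13.40 and 13.81, with a median of 13.56, in severe cows. The groups overlapped nearly throughout, and the difference was 0.16 ± 0.13 (limma adjusted p = 0.626), or 0.06 without mild 2. FMOD, fibromodulin, differed by -0.03 ± 0.20.

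Of the 5 elastic fibre genes, 4 had a higher and 1 a lower mean in severe cows, with a median of 0.09. Single cows turned this: without severe 4, 2 were higher and 3 lower, with a median of -0.01, and without mild 2 the median was 0.01. FBLN1, fibulin 1, a glycoprotein of elastic fibres and basement membranes, was at 13.10, 12.51, 12.89, 12.53 and 12.54 in mild cows and between 12.79 and 13.36, with a median of 12.96, in severe cows. All severe cows were above the mild mean, and 2 were above mild 1, the highest mild cow. The difference was 0.32 ± 0.14, with a limma unadjusted p of 0.044 and an adjusted p of 0.377, and a second quantile normalization left 0.20.

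FBN1, fibrillin 1, the backbone of the microfibrils on which elastin is laid down, was at 11.57, 10.81, 11.51, 11.25 and 11.47 in mild cows and between 11.44 and 11.95, with a median of 11.55, in severe cows. All 6 severe cows lay above the mild mean, the difference was 0.31 ± 0.14 (limma adjusted p = 0.391), and it was 0.19 without mild 2. ELN, elastin itself, differed by 0.00 ± 0.18. FBLN5, which guides elastin onto microfibrils, differed by 0.09 ± 0.16, and LOX, which crosslinks both elastin and collagen, by -0.11 ± 0.21.

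The 6 adhesive and matricellular glycoproteins split evenly, 3 higher and 3 lower in severe cows. THBS1, thrombospondin 1, which inhibits vessel growth and can activate latent TGF-beta, was at 12.61, 11.55, 12.07, 11.77 and 11.87 in mild cows. It ran from 12.07 to 12.95 with a median of 12.42 in severe cows, all above the mild mean. Mild 1 lay among the upper severe cows, mild 3 was level with the lowest one, and the difference was 0.48 ± 0.20, with a limma unadjusted p of 0.037 and an adjusted p of 0.367. As the mean over its 6 probe sets it was 0.19.

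THBS2, its relative, which binds matrix metalloproteinase 2 and affects fibril shape, was at 9.06, 7.29, 8.87, 9.07 and 9.74 in mild cows and between 8.44 and 10.55, with a median of 9.45, in severe cows. The mild cows alone spanned more than 2 log2 units. The difference of 0.67 ± 0.45 (limma adjusted p = 0.549) was 0.29 without mild 2. FN1, fibronectin, the adhesive scaffold laid down early in repair, was at 12.64, 12.04, 12.64, 12.50 and 12.68 in mild cows and between 12.38 and 13.16, with a median of 12.49, in severe cows. Severe 4 and severe 5 stood above all other cows, and the difference was 0.18 ± 0.18 (limma adjusted p = 0.703), or 0.06 without mild 2 alone and -0.02 without mild 2 and severe 5.

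SPARC, osteonectin, a collagen-binding glycoprotein needed for normal fibril assembly, was at 13.01, 12.52, 13.20, 13.05 and 12.81 in mild cows and between 12.39 and 13.06, with a median of 12.78, in severe cows. The difference was -0.18 ± 0.14 (limma adjusted p = 0.602), or between -0.28 and -0.11 with 1 cow left out, and 1 severe cow was below every mild cow. TNC, tenascin C, and POSTN, periostin, both made by activated fibroblasts, differed by -0.26 ± 0.36 and -0.46 ± 0.49. POSTN had the widest SD of the 45 genes, 0.924.

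The other probe sets of these genes gave a check on the chosen ones. Of 41 others, 16 were dim, and of the 25 with a clear signal 9 had a difference of the opposite sign to the chosen probe set. They repeated the value closely for COL3A1 (-0.06), BGN (0.49) and FBLN1 (0.31), and gave the same sign for COL1A2 (-0.27), COL27A1 (-0.28) and COL4A1 (-0.13). For COL1A1 the second probe set gave 0.06, the opposite sign, and its r with the chosen one over the cows was 0.077. For LAMC1 the other 4 probe sets with a clear signal were all below 0, between -0.18 and -0.01. For THBS1 the other 5 were 0.52, -0.08, 0.28, -0.20 and 0.16. At an unadjusted p under 0.05 in limma there were 4 of the 41, beside 3085 of all 24016 probe sets, so the count was not above that of the array. They were COL11A1 (-0.97, dim), COL2A1 (-0.36), COL4A4 (-0.81, dim) and COL6A2 (-0.65, opposite to its chosen probe set).

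Genes whose products work together were compared over the 11 cows. For this, 8 pairs were tested by Pearson's correlation with 100000 permutations and Benjamini-Hochberg adjustment over the pairs. For COL1A1 and COL1A2, the chains of collagen I, r was 0.834 (permutation p = 0.00133, adjusted 0.00355) and Spearman's rho 0.782 (adjusted p = 0.0163). For COL1A1 and SPARC r was 0.868 (permutation p = 0.00045, adjusted 0.0018; rho 0.873, adjusted p = 0.0064). For DCN and LUM, which lie side by side on chromosome 5, r was 0.845 (permutation p = 0.0003, adjusted 0.0018; rho 0.791, adjusted p = 0.0163). For COL1A1 and COL3A1, which share fibrils, r was 0.744 (permutation p = 0.00842, adjusted 0.0168), though its rho of 0.618 did not pass (adjusted p = 0.0955). These 4 pairs also passed within the groups, after each group's mean was subtracted, with r of 0.814, 0.846, 0.819 and 0.765 and adjusted permutation p-values of 0.0194, 0.0125, 0.0125 and 0.0447.

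Without the 2 cows farthest from the median of the first gene, r for those 4 pairs, in the same order, was 0.791, 0.725, 0.618 and 0.636, with adjusted permutation p-values of 0.0599, 0.120, 0.137 and 0.137. The cows left out were mild 3 and severe 2 for the COL1A1 pairs, and mild 2 and severe 4 for DCN and LUM. None of the 8 pairs then passed, over 9 cows and a narrower range of the first gene, and for COL1A1 and COL1A2 r moved little. The other 4 pairs did not pass with all cows. COL6A1 and COL6A2, neighbours on chromosome 1, had r of 0.587 (permutation p = 0.0609, adjusted 0.0974). LAMB1 and LAMC1, chains of 1 laminin, had 0.524 (permutation p = 0.0975, adjusted 0.130), which was 0.033 without mild 2 and severe 5. COL3A1 and COL5A2, neighbours on chromosome 2, had 0.493 (permutation p = 0.124, adjusted 0.142), and COL1A1 and COL4A1 had 0.467 (permutation p = 0.147, adjusted 0.147). Their rho values were 0.509, 0.355, 0.355 and 0.391, with adjusted p-values of 0.185, 0.286, 0.286 and 0.286.

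The same picture held over all pairs of the 39 genes with a clear signal, given as a description. After subtraction of group means, the average correlation between 2 of them over the cows was 0.169, beside 0.019 for all 7237 genes with a clear signal. It was 0.351 among elastic fibre genes, 0.337 among the glycoproteins, 0.253 among the proteoglycans and 0.184 among fibrillar collagens. It was 0.070 among basement membrane genes and 0.029 among the laminins, and between fibrillar and basement membrane genes it was 0.031. On the chosen probe sets the laminins thus shared a side of 0 in the comparison of the groups, though LAMC1 did not on its others with a clear signal. Within the groups the laminins did not vary together from cow to cow. All values share the same 11 arrays. The 2 closest pairs were LUM with FBN1 (0.946) and COL5A2 with LOX (0.921), and the most opposed was LAMB2 with TNC (-0.925), all chosen after their values were seen. Single cows recur at the ends: mild 2 was the lowest of the 11 cows in 13 of the 39 genes, and mild 1 and severe 4 were each the highest in 9.

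**Figure D4:**
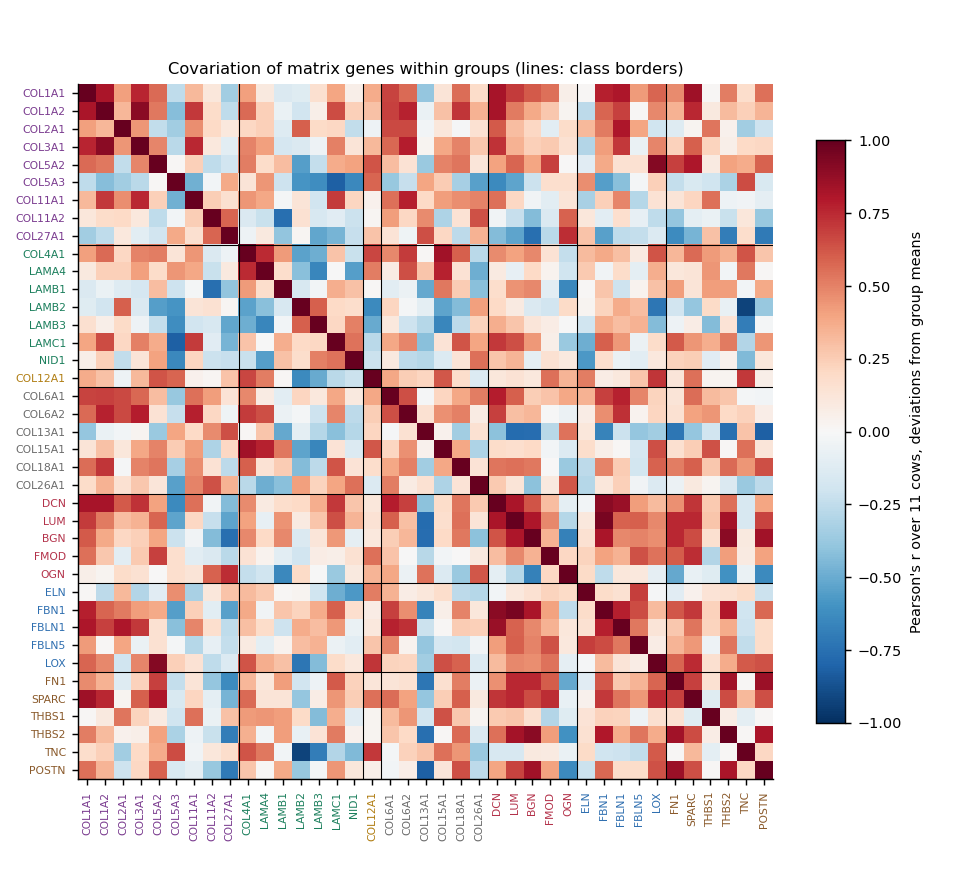
Pearson's r between 39 matrix genes over the 11 cows after each group's mean was subtracted, from -1 (blue) to 1 (red), with lines at class borders. COL1A1 correlates with DCN (0.824), FBN1 (0.773), FBLN1 (0.812) and SPARC (0.846), while the rows of the laminins show no common pattern.

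Cells must modify, fold and crosslink collagen chains, and most enzymes of that route had a lower mean in severe cows. Of 33 listed genes 21 were measured, 4 higher and 17 lower, with a median difference of -0.24. None of the 21 had a limma adjusted p under 0.05, the smallest being 0.282. At an unadjusted p under 0.05, 6 of 21 were lower and 0 were higher, beside 7.46% lower and 8.45% higher over all genes. The count of lower enzymes ran from 2 to 7 when 1 cow was left out. It was 2 without mild 3, beside 5.09% lower over all genes, and 3 without mild 1, beside 6.00%. It was also 3 without mild 4 or severe 6, and 7 without severe 5. The average over the list was 0.10, -0.07, 0.20, 0.16 and 0.10 in mild cows and ran from -0.24 to 0.03 in severe cows. All 6 severe cows were below the mild mean, 3 of them below mild 2, the lowest mild cow.

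CRTAP, a partner of the prolyl 3-hydroxylase that modifies collagen chains, was at 9.13, 9.25, 9.23, 9.21 and 8.69 in mild cows and between 8.13 and 8.80 in severe cows. All mild cows but 1 lay above all severe cows, and mild 5 lay within their range. The difference was -0.60 ± 0.14 (limma adjusted p = 0.282). P4HA2, a catalytic subunit of prolyl 4-hydroxylase, which stabilises the triple helix, was at 9.78, 9.81, 9.92, 9.83 and 9.98 in mild cows and between 9.30 and 9.89 in severe cows, a difference of -0.30 ± 0.11 (limma adjusted p = 0.320).

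Of the other 4, SERPINH1, the chaperone HSP47 of folded collagen, differed by -0.59 ± 0.23, and by -0.39 without severe 2. FKBP10, a collagen chaperone of the endoplasmic reticulum, differed by -0.32 ± 0.13. COLGALT2, which adds sugars to hydroxylysine, differed by -0.35 ± 0.15. ADAMTS2, which removes the amino-terminal propeptide of collagen I, differed by -0.35 ± 0.15, with a mean below the dim limit in severe cows. LOXL4, a lysyl oxidase that crosslinks collagen, was on the other side at 0.28 ± 0.25.

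**Figure D5:**
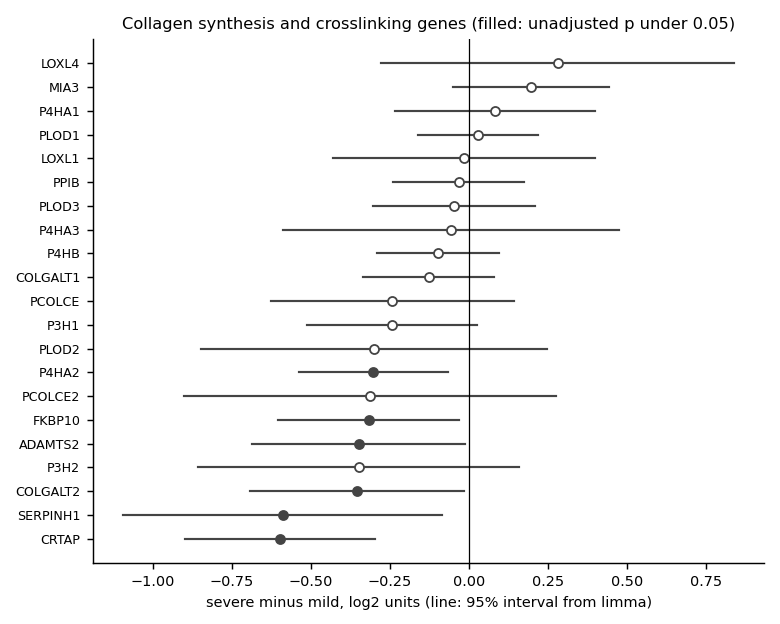
Difference of the mean log2 signal, severe (n = 6) minus mild (n = 5), of 21 collagen-modifying and crosslinking genes with the 95% interval from limma; filled points have an unadjusted p under 0.05. The points of 17 genes lie left of 0 and all 6 filled points are among them.

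Other matrix proteins showed no common side. Of 40 listed, 29 were measured, 15 higher and 14 lower in severe cows, with a median of 0.01 and 6 dim in both groups. At an unadjusted p under 0.05 limma found 4 higher (LTBP2, ECM1, CCN1 and VTN) and 0 lower, beside 8.45% higher and 7.46% lower over all genes. VTN, vitronectin, was dim in both groups at 0.20 ± 0.08. LTBP2, a microfibril protein related to the carriers of latent TGF-beta, was at 6.25, 6.43, 6.72, 6.22 and 6.63 in mild cows and between 6.64 and 7.53 in severe cows. Only severe 1 lay inside the mild range, and the difference was 0.70 ± 0.17 (limma adjusted p = 0.285).

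Of 27 matrix receptors 17 were measured, 12 higher and 5 lower, with a median of 0.05. Without mild 2 there were 8 higher and 9 lower, with a median of -0.01. At an unadjusted p under 0.05 limma found 3 higher and 1 lower, beside 8.45% higher and 7.46% lower over all genes. Without mild 2 it found 1 higher and 2 lower, beside 5.49% lower over all genes. CD36, a receptor for thrombospondin and fatty acids that macrophages and vessels carry, was at 7.53, 6.88, 6.65, 6.88 and 8.39 in mild cows and between 7.86 and 9.96 in severe cows, a difference of 1.52 ± 0.42 (limma adjusted p = 0.289). SDC2, a cell surface heparan sulfate proteoglycan of fibroblasts, was at 9.93, 10.40, 10.47, 10.26 and 9.25 in mild cows and between 8.50 and 9.92 in severe cows, a difference of -0.998 ± 0.29 (limma adjusted p = 0.294). Mild 5 was at the severe end for both genes. CD47, a thrombospondin 1 receptor, and ITGB6, an epithelial integrin chain, differed by 0.51 ± 0.22 and 0.52 ± 0.23, both at an unadjusted p under 0.05.

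The means of 4 proteases that cut the matrix lay further apart than those of any of the 45 matrix genes, though none passed the test. Of 21 listed metalloproteinases and inhibitors 13 were measured, 8 higher and 5 lower, with a median of 0.24, or 0.10 without mild 2. At an unadjusted p under 0.05 limma found 4 higher, beside 8.45% of all genes. MMP3, stromelysin 1, was at 8.04, 4.97, 9.49, 8.91 and 7.05 in mild cows and between 9.70 and 13.48 in severe cows, with no overlap and a difference of 3.81 ± 0.89 (limma adjusted p = 0.282). MMP1, the interstitial collagenase that cleaves collagens I and III, differed by 4.85 ± 1.06 (limma adjusted p = 0.269). Its groups overlapped, with severe 1 at 6.64, below mild 3 (7.93) and mild 4 (6.78). The mean of the collagenase MMP13 differed by 2.41 ± 0.67, and that of the gelatinase MMP9 by 2.40 ± 0.90, with overlapping groups for both. Some mild cows were dim for these genes, mild 1 and mild 2 for MMP1, mild 2 for MMP3 and MMP9, and mild 1, mild 2 and mild 4 for MMP13, so none of the 4 sizes is exact. Beside them, COL1A1, COL1A2 and COL3A1, whose products these collagenases cut, had differences of -0.15, -0.13 and -0.03.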

How the data were processed

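The deposited table holds log2 values, which the authors made with RMA per the submitters' processing notes, for 1 array per cow. RMA removes background, gives all arrays 1 distribution and joins probes into probe sets. No RMA version or software is given in the sources used here. All array medians were 6.20, so a shift common to all transcripts cannot be seen. Of 24128 probe sets, 112 controls were left out. Among the 24016 tested, 13292 had 1 symbol, 86 several and 10638 none in the platform annotation. Symbols were checked through Entrez numbers against a RefSeq gene table of ARS-UCD2.0 (13263 matched, 0 renamed), which was also used to see which genes are neighbours.

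The groups were compared with limma (version 3.58.1, R 4.3.3), by its two-sided moderated test with no covariate, and p-values were adjusted by Benjamini-Hochberg across the 24016 probe sets (threshold 0.05). The procedure was tested on simulated data. Permutations used Python 3.11.15 and scipy 1.17.1, and figures matplotlib 3.10.9. Genes named by rule are the members at an unadjusted p under 0.05, the 2 genes with the smallest p of each class and list, and COL1A1, COL1A2, COL3A1, COL4A1, COL4A2 (not analysed here), LAMB1, LAMC1, FN1, SPARC, DCN and LUM. Others were named after their values were seen. Members and lists were chosen with earlier results of these data known. Replicate numbers follow sample order and only name cows, and blocks are not given per cow. The limma p-values set the difference between the groups against the spread between cows of a group, moderated over all probe sets. Those of the correlations come from permuted pairings of cows. Alternatives were a filter on dim probe sets (14410 kept), normalization, variance model, array weights, probe set choice, class members and each cow left out. The omission of mild 2 and severe 5 together (the most deviant arrays), the laminins as a class and every setting for the enzyme list were added after seeing the data.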

Additional observations from a re-analysis of the deposited data

Results flagged for a closer look

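In 3 of 50 groups of values, 1 cow stood apart from the rest of its group by Dixon's criterion, which chance meets in about 1 of 20 groups. LUM was at 12.92 in severe 4, with the next severe cow at 12.40. FN1 was at 12.04 in mild 2, with the next mild cow at 12.50. The balance of fibrillar over basement membrane genes was -0.10 in mild 5, with the next mild cow at 0.19.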

How the results depend on the processing

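Limma called 0 of 45 matrix genes in each of the 19 alternatives. Among them was a common median, which could change almost nothing because all array medians were already 6.20. The count at an unadjusted p under 0.05 in limma was 3 of 45, 2 higher and 1 lower. It was 5 after a second quantile normalization and 5 with the probe set of largest SD, each 0 higher and 5 lower. With trend and robust settings it was 6, and with array weights 6, each 4 higher and 2 lower. As the mean over probe sets it was 0 higher and 3 lower. The share of all genes that were lower moved too, being 7.46% as reported, 9.15% after the second quantile normalization, 8.18% with the largest SD, 7.13% with trend and robust settings and 9.85% with array weights. The count in the matrix genes ran from 0 to 8 when 1 cow was left out: 0 without mild 4 or severe 2, 1 without mild 2 or severe 6, 5 without mild 1, 6 without severe 1, 7 without severe 3 and 8 without mild 5. The share of all genes that were lower also moved, being 6.00% without mild 1, 5.49% without mild 2 and 5.09% without mild 3. The share that were higher is not given for the alternatives, so their counts of higher genes have no share beside them. The enzyme count of 6 ran from 2 to 7 with 1 cow left out. It was 8 after a second quantile normalization, beside 9.15% lower over all genes, and 8 without mild 2 and severe 5. Of the 23 named matrix genes 20 kept their sign in all alternatives, and the smallest adjusted p of any was 0.195. The exceptions were LAMC1 (-0.031 as the mean over probe sets, -0.18 with the largest SD), COL3A1 (from -0.092 to 0.036 with 1 cow left out) and FN1 (-0.022 without mild 2 and severe 5). The 15 named genes of other lists kept their sign, and MMP1 alone passed in 1 setting, without severe 1 (5.69, limma adjusted p = 0.0353). Severe 1 had the lowest MMP1 signal of the severe cows, 6.64. Of 8 correlated pairs 4 passed with all cows and 0 without the 2 farthest. No paired analysis was possible because replicate numbers only name the cows. With 5 and 6 arrays and signals near the floor for 6 genes, small differences were not detectable.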
